A study of Mus musculus with 79 samples.

Results

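Germline genes and core pluripotency genes were followed in adult mouse hypothalamus, in transcript counts and in 3 histone marks at their promoters. The members were a fixed list of 39 gene symbols, and all 39 were found among the 25965 genes of the RNA-seq table. They comprised 13 genes of the piRNA pathway, 10 of meiotic chromosome structure and recombination, 8 germ cell regulators, 3 genes of testis surface or carrier proteins and 5 pluripotency genes.

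Hypothalami came from 14-week-old mice on a C57BL/6Babr background. Wild-type mice are written +/+. Mutant mice are written Δ/D329A with the maternal allele first: Δ is a Dnmt3a allele that lost exon 18 through Zp3-Cre recombination in the oocyte, and D329A is a paternal Dnmt3a allele with a substitution in the PWWP domain, the part of the methyltransferase that reads histone methylation. The D329A product was therefore the only functional DNMT3A of the mutants, and animals that carry Δ without D329A were not analysed here. RNA-seq covered 5 +/+ and 4 Δ/D329A animals, and native ChIP-seq covered 3 animals per genotype for H3K4me3, H3K27me3, H3K36me3 and input, each library being 1 animal. RNA and chromatin were not from the same animals: Xist held 2694 to 7044 reads in all 9 RNA libraries and the Y-linked genes Ddx3y, Uty, Kdm5d and Eif2s3y held 1 read in total, whereas in the 6 input libraries coverage of the X chromosome was 0.415 to 0.429 times that of the autosomes. A supplementary legend of the study gives the RNA-seq hypothalami as female, and a figure legend gives the ChIP-seq hypothalami as male.

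In somatic cells, germline genes with CpG-rich promoters are a textbook target of DNA methylation, laid down around implantation and kept through division. Before that, many of them are held silent by a Polycomb-type complex that reaches DNA through E2F6 and through the MGA and MAX partners, which bind the E-box CACGTG. H3K4me3 marks promoters that are active or unmethylated, H3K27me3 marks Polycomb repression of unmethylated CpG islands, and H3K36me3 marks transcribed gene bodies and is read by the PWWP domain. DNA methylation itself was not analysed here, so the members are described as germline and pluripotency genes rather than as methylated genes.

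RefSeq promoter sequences of build GRCm38.p6, from 250 bases before the start to 50 after it, were matched to 31 of the 39 members. Piwil2, Tdrd6, Dppa2, Dppa3, Dppa4, Tex11, Rnf17 and Spo11 had no entry. The matched start of Mei1 lies 12480 bp from its start in the RNA-seq table, which was used for the marks below. The following 8 are shown because the results below turn on these genes or on their sequence: Sycp3 (chr10:88459337-88459636, plus strand), Stk31 (chr6:49395354-49395653, plus strand), Mael (chr1:166238695-166238994, minus strand), Tdrd1 (chr19:56825959-56826258, plus strand), Ddx4 (chr13:112652261-112652560, minus strand), Brdt (chr5:107330944-107331243, plus strand), Tex14 (chr11:87404815-87405114, plus strand) and Smc1b (chr15:85131908-85132207, minus strand). Each is written 5′ to 3′ along its gene's strand, and capitals mark CACGTG and GCGGGA, the core of an E2F site, on either strand.
Sycp3: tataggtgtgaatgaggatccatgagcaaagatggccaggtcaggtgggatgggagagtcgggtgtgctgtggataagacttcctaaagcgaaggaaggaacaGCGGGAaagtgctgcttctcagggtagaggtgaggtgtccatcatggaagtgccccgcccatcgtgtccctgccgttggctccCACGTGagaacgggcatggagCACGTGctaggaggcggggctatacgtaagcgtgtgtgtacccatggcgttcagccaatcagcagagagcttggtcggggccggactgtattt
Stk31: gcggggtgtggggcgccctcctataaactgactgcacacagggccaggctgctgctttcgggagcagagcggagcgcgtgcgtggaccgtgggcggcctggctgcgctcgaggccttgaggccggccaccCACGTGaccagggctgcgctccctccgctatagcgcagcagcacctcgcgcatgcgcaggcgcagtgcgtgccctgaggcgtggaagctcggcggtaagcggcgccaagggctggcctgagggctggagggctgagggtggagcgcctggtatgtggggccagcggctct
Mael: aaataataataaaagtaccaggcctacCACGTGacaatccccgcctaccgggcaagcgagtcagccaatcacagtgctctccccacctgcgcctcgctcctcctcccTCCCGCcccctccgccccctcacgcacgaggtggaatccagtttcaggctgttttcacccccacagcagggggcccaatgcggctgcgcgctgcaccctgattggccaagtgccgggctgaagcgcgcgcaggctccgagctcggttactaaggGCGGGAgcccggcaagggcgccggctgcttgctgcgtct
Tdrd1: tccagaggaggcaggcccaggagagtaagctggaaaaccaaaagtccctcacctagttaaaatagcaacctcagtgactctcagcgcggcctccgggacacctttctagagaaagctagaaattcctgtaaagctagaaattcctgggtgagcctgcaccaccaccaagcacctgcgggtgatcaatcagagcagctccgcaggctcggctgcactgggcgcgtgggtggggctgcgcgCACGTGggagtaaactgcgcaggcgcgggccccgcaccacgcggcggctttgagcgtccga
Ddx4: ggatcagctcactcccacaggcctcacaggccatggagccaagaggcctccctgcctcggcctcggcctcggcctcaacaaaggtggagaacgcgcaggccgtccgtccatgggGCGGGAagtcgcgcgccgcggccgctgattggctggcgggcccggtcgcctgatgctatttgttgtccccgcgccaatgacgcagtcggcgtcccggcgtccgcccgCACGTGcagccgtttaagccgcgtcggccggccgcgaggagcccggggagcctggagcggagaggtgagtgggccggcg
Brdt: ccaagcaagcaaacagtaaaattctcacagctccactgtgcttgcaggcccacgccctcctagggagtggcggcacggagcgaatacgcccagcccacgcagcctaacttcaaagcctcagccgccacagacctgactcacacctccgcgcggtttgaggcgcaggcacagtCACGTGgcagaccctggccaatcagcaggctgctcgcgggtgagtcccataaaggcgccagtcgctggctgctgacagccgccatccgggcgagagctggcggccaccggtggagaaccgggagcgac
Tex14: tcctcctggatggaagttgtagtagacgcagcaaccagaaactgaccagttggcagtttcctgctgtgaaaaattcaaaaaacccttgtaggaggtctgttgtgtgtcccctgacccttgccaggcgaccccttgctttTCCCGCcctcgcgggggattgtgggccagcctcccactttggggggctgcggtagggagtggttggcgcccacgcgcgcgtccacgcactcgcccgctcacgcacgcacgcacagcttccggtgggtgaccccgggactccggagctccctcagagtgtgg
Smc1b: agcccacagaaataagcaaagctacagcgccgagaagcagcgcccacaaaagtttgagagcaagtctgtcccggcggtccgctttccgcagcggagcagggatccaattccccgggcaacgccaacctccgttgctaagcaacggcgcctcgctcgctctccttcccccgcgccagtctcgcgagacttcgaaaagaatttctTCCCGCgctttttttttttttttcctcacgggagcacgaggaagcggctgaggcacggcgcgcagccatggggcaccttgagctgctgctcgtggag

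The E-box CACGTG, which reads the same on both strands, was present in 14 of the 31 member promoters and in 8.02% of the 16047 promoters of the same length matched to genes of the table. It occurs in 6 of the 8 sequences above and is absent from the windows of Tex14 and Smc1b. GCGGGA or its complement TCCCGC was present in 9 of 31 member promoters and in 26.2% of all promoters, so for this shorter motif the shares were close. The longer form GCGGGAA was present in 7 of 31 against 6.09%. CACGTG and GCGGGA occurred together in 6 of 31 member promoters and in 2.80% of all. The member promoters held a median of 18 CpG (range 8 to 48) and all promoters a median of 14. These matches are descriptions of sequence and no binding was measured.

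In the libraries themselves, 3837453 to 9729868 reads per RNA library fell on nuclear genes. Counts below are whole reads, recovered from the deposited log2 RPKM values, and RPM is a gene's reads scaled to the reads on nuclear genes of its library. Testis markers were near absent, as 8 of 14 had no read in any library, among them the protamines Prm1 and Prm2, and the summed list lay at 4.91 to 8.74 RPM in +/+ and at 5.82 to 10.7 in Δ/D329A. All 15 hypothalamic neuropeptide genes were detected, at 943 to 1280 summed RPM in +/+ and 946 to 1173 in Δ/D329A. At an adjusted p under 0.01 limma called none of the 15, and 3 had an unadjusted p under 0.05, against 7.62% of all genes tested. The edgeR test called 1, Cartpt, lower (named after its value was seen, log2 fold change −0.83, adjusted p = 0.000236), with 7 of 15 at an unadjusted p under 0.05 against 13.6% of all genes. In bulk tissue, a lower level in all cells and fewer cells that express a gene cannot be told apart. Dnmt3a itself had a mean of 1.91 ± 0.16 log2 RPKM (SD, n = 5) in +/+ and 1.63 ± 0.09 (n = 4) in Δ/D329A, a difference of −0.28 with an adjusted p of 0.355 by limma, and its whole-gene count does not report on either allele.

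Most members were at the lower edge of detection. No read fell on 6 of the 39 in any of the 9 libraries, namely the pluripotency factors Dppa2, Dppa3 and Dppa4, the spermatogonial transcription factor Sohlh1, the meiotic entry factor Stra8 and the testis dipeptidase Dpep3. Across all nuclear genes 21.4% had no read. A count of 0 allows up to 3 reads, or 0.308 to 0.782 RPM by library, and intervals and limits of this kind cover counting error only. A further 12 members had 1 to 9 reads over the 9 libraries together, 15 had 10 to 99 and 6 had 100 or more. Just 10 members had reads in every library.

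Brdt, Tdrd5, Sycp2 and Dmrtb1, the 4 highest members per length in +/+, had genotype ratios with intervals that include 1. Brdt, the testis-specific BET bromodomain protein, had 73, 57, 30, 65 and 57 reads in the +/+ libraries and 44, 30, 52 and 41 in Δ/D329A. It was the highest member per length, at −0.59 ± 0.36 log2 RPKM (SD, n = 5) in +/+, below the median of 1.09 over all genes tested, and the mutant mean was −0.62 ± 0.22 (n = 4). The groups overlapped throughout, and the genotype ratio was 0.952 (exact 95% interval 0.781 to 1.16). This ratio pools the libraries of a genotype, as their summed reads of the gene over their summed reads on nuclear genes, so that deeper libraries weigh more. Tdrd5, a Tudor protein needed to silence transposons in male germ cells, had 47, 39, 18, 42 and 45 reads in +/+ and 32, 26, 32 and 15 in Δ/D329A, a ratio of 0.884 (0.690 to 1.13). Sycp2, an axial element protein of the synaptonemal complex, had 15, 27, 11, 25 and 18 reads against 18, 6, 19 and 7. Its ratio was 0.837 (0.582 to 1.19). Dmrtb1, a DM-domain factor of the switch from mitosis to meiosis, had 13, 11, 10, 5 and 10 reads against 6, 6, 6 and 10, and its ratio was 0.918 (0.556 to 1.49). The smallest unadjusted limma p among these 4 genes was 0.322, at Sycp2.

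**Figure D1:**
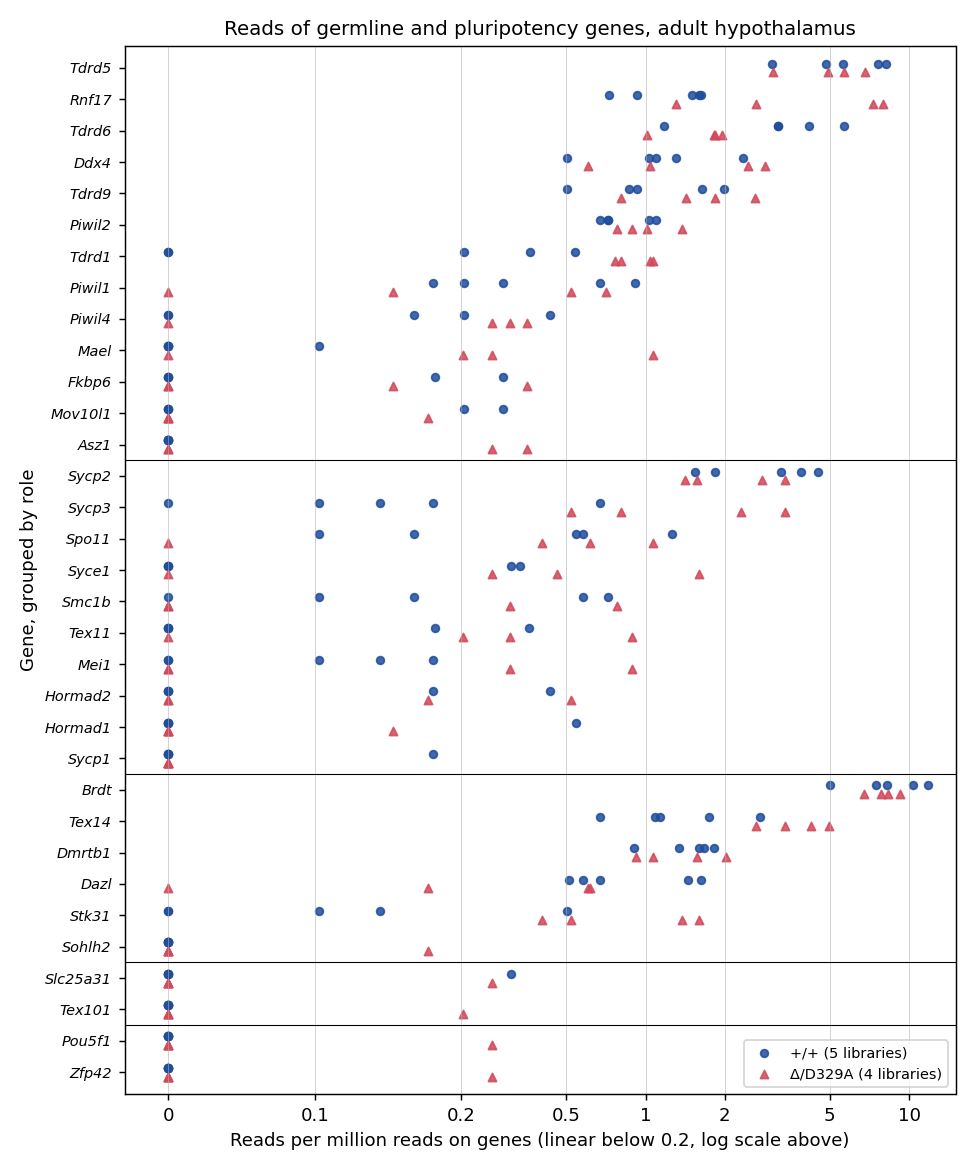
RPM (x axis, linear below 0.2 and logarithmic above) of the 33 members with a read, in each of 5 +/+ libraries (blue circles) and 4 Δ/D329A libraries (red triangles), grouped by role from piRNA pathway genes at the top to pluripotency genes at the bottom. Brdt and Tdrd5 stand furthest right with overlapping genotypes, and Rnf17 and Sycp3 show 2 of 4 mutant libraries well to the right of all +/+ libraries.

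The genotype comparison asked whether any of these genes was expressed differently in the mutant hypothalamus. On the deposited log2 RPKM, 11 members were high enough to test (0.1 RPKM in at least 4 libraries) and 0 passed an adjusted p of 0.01 with limma, where 0.107% of all genes tested passed. At an unadjusted p under 0.05, 4 of the 11 differed (Tex14, Sycp3, Rnf17 and Tdrd6), against 7.62% of all genes tested. Because a gene that is tested only through higher mutant libraries had to differ, the 11 are not a sample of the 39. Sycp3 was such a gene, as +/+ replicate 3 and all 4 mutant libraries reached 0.1 RPKM and the other +/+ libraries did not. Count models on the reads, without a filter, could include all 33 members with a read. There edgeR's quasi-likelihood test called 1 of 33, a higher gene, against 0.716% of genes called in either direction and 0.397% called higher, and DESeq2 also called 1 of 33, against 1.22%, and in both it was Rnf17. Unadjusted edgeR p-values were under 0.05 for 7 of 33 members, 6 higher and 1 lower in the mutant, against 13.6% of genes.

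Rnf17 (chr14:56402697-56525032, plus strand) encodes a Tudor and RING finger protein of germ cell granules that limits piRNA amplification. Its +/+ libraries held 9, 11, 9, 9 and 4 reads and the Δ/D329A libraries 52, 5, 41 and 13. In RPM these were 0.728 to 1.63 in +/+ and 7.97, 1.30, 7.27 and 2.63 in mutant replicates 1 to 4. Mutant replicates 1, 3 and 4 lay above every +/+ library, and replicate 2 lay among them. The pooled ratio was 4.25 (exact 95% interval 2.95 to 6.21). The log2 fold change was 1.95 by edgeR (adjusted p = 0.00955) and 1.93 ± 0.51 (SE) by DESeq2 (adjusted p = 0.0095), while limma gave 1.65 ± 0.57 (SE) with an adjusted p of 0.355. The call rested on single libraries: leaving out each library in turn moved the edgeR adjusted p between 0.000803 and 0.103, and it exceeded 0.01 without +/+ replicate 1 (0.0113), 2 (0.0148) or 5 (0.0143) and without mutant replicate 1 (0.103) or 3 (0.0556).

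Sycp3 (chr10:88459569-88473236, plus strand), the lateral element protein whose promoter above carries CACGTG at 2 places, had 1, 1, 4, 1 and 0 reads in +/+ and 22, 2, 13 and 4 in Δ/D329A. In RPM the mutant libraries stood at 3.37, 0.521, 2.31 and 0.810, again with replicates 1 and 3 highest, and +/+ replicate 3 at 0.669 lay above mutant replicate 2. The pooled ratio was 9.41 (4.18 to 24.9), the limma log2 difference 2.79 ± 0.66 (SE, adjusted p = 0.234) and the edgeR log2 fold change 2.99 (adjusted p = 0.022). Sycp3 passed the limma filter through its mutant libraries, so its limma values are a description only. Sycp3 did not pass 0.01 by limma, edgeR or DESeq2 with all libraries, and without +/+ replicate 3 the edgeR adjusted p was 0.00574, within a range of 0.00574 to 0.19 over single libraries left out. The Sycp3 locus overlaps Chpt1 on the opposite strand, where the study describes its libraries as strand-specific but whether counting used strand is not given in the sources used here. Chpt1 counts were lower in the mutant, with 691 to 887 reads in +/+ and 243 to 524 in Δ/D329A, a pooled ratio of 0.711 (0.671 to 0.752). Scaled to depth, Chpt1 lay at 91.2 to 136.8 RPM in +/+ and 63.3 to 92.5 in Δ/D329A, so the libraries overlapped.

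Tex14 (chr11:87405065-87555823, plus strand), required for the intercellular bridges that join germ cells, had 11, 12, 4, 6 and 15 reads in +/+ and 22, 19, 24 and 13 in Δ/D329A. In contrast to Rnf17 and Sycp3, all 4 mutant libraries were high, at 2.63 to 4.95 RPM, and +/+ replicate 5 at 2.73 was the single overlapping library. The ratio was 2.61 (1.80 to 3.82). Tex14 had the smallest unadjusted limma p of the members tested, with a log2 difference of 1.51 ± 0.33 (SE, adjusted p = 0.18), and its edgeR and DESeq2 adjusted p-values were 0.059 and 0.048. Tdrd1 (chr19:56826209-56870012, plus strand), a Tudor scaffold that binds PIWI proteins, had 2, 0, 0, 3 and 2 reads in +/+ and 5, 4, 6 and 4 in Δ/D329A. Every mutant library was above every +/+ library (0.766 to 1.07 RPM against 0 to 0.542), the 1 member of 33 of which this was true, where 2.56% of genes with a read did the same. No member had every mutant library below every +/+ library, which 2.84% of genes did. Its ratio was 4.36 (1.76 to 12.3) and its edgeR adjusted p was 0.212.

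Stk31, a Tudor-domain kinase of germ cells, and Mael, a piRNA pathway protein, were rarer still. Stk31 had 1, 1, 3, 0 and 0 reads in +/+ and 9, 2, 9 and 2 in Δ/D329A, a ratio of 7.07 (2.61 to 23.9) with an edgeR adjusted p of 0.105. Mael had 1, 0, 0, 0 and 0 reads against 0, 1, 6 and 1. With a single +/+ read its ratio of 12.9 had an interval of 1.72 to 571, and the edgeR adjusted p was 0.236. Syce1, of the central element of the synaptonemal complex, had 3, 0, 2, 0 and 0 reads against 3, 1, 9 and 0, a ratio of 4.18 (1.40 to 14.97), with limma and edgeR adjusted p-values of 0.432 and 0.391. The X-linked recombination gene Tex11 had 0, 0, 0, 2 and 1 reads against 2, 0, 5 and 1, and Mei1, of double-strand break formation, had 1, 1, 0, 1 and 0 against 2, 0, 5 and 0. In these 5 genes mutant replicate 3 had the highest, or shared the highest, read number.

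Replicates 1 and 3 were the more deeply sequenced of the 4 mutant libraries, which RPM takes into account. Summed over the 39 members, RPM were 26.0, 32.7, 19.9, 42.1 and 40.8 in +/+ and 43.1, 35.96, 50.9 and 27.1 in Δ/D329A. Of the 32 members with a mutant read, the highest RPM was in replicate 3 for 17, in replicate 2 for 8, in replicate 1 for 5 and in replicate 4 for 2. The matching shares over all genes were not determined. Without Rnf17 and Sycp3 the sums were 17.7 to 40.3 in +/+ and 23.7 to 41.3 in Δ/D329A, so the genotypes overlapped in both directions. Markers of neighbouring tissue were compared in the same libraries. Ttr, which the choroid plexus makes in abundance and which was named after its values were seen, had 15, 7, 25, 13 and 21 reads in +/+ and 66, 27, 65 and 23 in Δ/D329A, also highest in replicates 1 and 3 (limma adjusted p = 0.187, edgeR log2 fold change 1.74 with an adjusted p of 0.00334). Most other choroid plexus markers went the other way. Of the 6 tested by limma, 2 had a log2 difference above 0, Ttr among them, and the median was −0.25. The 8 choroid plexus markers, Ttr included, summed to 96.7 to 132 RPM in +/+ and 93.8 to 108 in Δ/D329A. The ependymal list of 7 measured genes summed to 73.9 to 108 and 95.1 to 114 RPM, and the anterior pituitary list of 8 to 1.75 to 34.4 and 7.90 to 24.4. Their part in the values of Rnf17 and Sycp3 was not tested.

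Tdrd6 and Dazl had lower counts in the mutant. Tdrd6 (chr17:43615335-43630299, minus strand), a Tudor scaffold of the chromatoid body, had 31, 22, 7, 23 and 31 reads in +/+ and 12, 7, 11 and 5 in Δ/D329A, or 1.17 to 5.64 against 1.01 to 1.95 RPM. Only +/+ replicate 3 lay within the mutant range. The ratio was 0.493 (0.328 to 0.726), with a limma log2 difference of −0.93 ± 0.37 (SE, adjusted p = 0.355) and an edgeR adjusted p of 0.2. Dazl, the RNA-binding translational regulator of germ cells, had 5, 4, 4, 9 and 8 reads against 4, 0, 1 and 3, a ratio of 0.429 (0.170 to 0.957) with an edgeR adjusted p of 0.436.

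The other piRNA pathway genes showed ratios with intervals that include 1. Ddx4, the germ cell RNA helicase known as Vasa, had 10, 9, 3, 13 and 6 reads in +/+ and 16, 4, 16 and 3 in Δ/D329A, a ratio of 1.53 (0.961 to 2.43). The mutant libraries split as for Rnf17, with replicates 1 and 3 above all +/+ libraries and replicate 4 the lowest mutant library at 0.607 RPM. Tdrd9, a Tudor helicase, had 9, 6, 3, 11 and 9 against 12, 10, 8 and 4 reads, a ratio of 1.44 (0.878 to 2.35). Of the PIWI proteins, Piwil2 had 29 reads in +/+ and 22 in Δ/D329A, Piwil1 had 14 and 7 and Piwil4 had 6 and 5. Fkbp6, Mov10l1 and Asz1 had 0 to 4 reads per genotype.

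Among meiotic genes, Spo11, which makes the breaks that start recombination, had 16 reads in +/+ and 12 in Δ/D329A, and the meiotic cohesin Smc1b had 10 and 5. The axis proteins Hormad1 and Hormad2 had 3 and 1 and 4 and 3 reads, and the transverse filament protein Sycp1 had 1 read in +/+ and 0 in the mutant. The testis surface protein Tex101 and the ADP/ATP carrier Slc25a31 had 0 and 1 and 3 and 1 reads, and Sohlh2 had 0 and 1. Of the 5 pluripotency genes, Pou5f1, which encodes OCT4, and Zfp42, which encodes REX1, had 0 reads in +/+ and 1 in Δ/D329A. Counts this low leave a ratio undetermined at this depth, and none is given where both genotypes are at 3 reads or fewer.

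**Figure D2:**
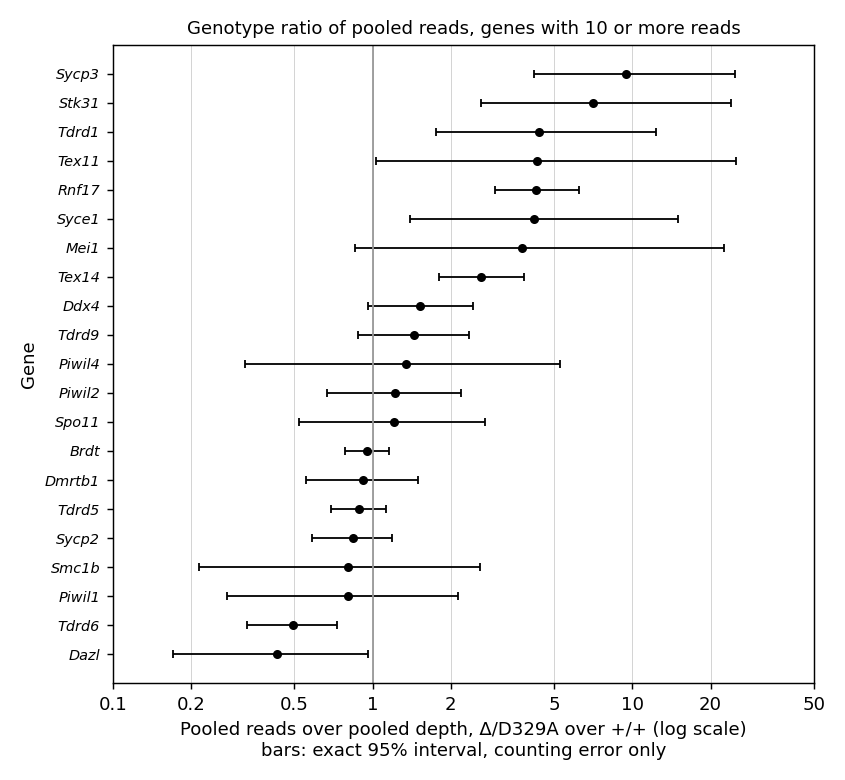
Ratio of pooled reads over pooled depth, Δ/D329A (4 libraries) over +/+ (5 libraries), on a logarithmic x axis for the 21 members with 10 or more reads, with exact 95% intervals that cover counting error and not the spread between animals. Sycp3 at 9.41, Stk31, Tdrd1 and Rnf17 at 4.25 lie right of 1, Tdrd6 at 0.493 and Dazl at 0.429 lie left of it, and Brdt and Tdrd5 have the narrowest intervals, around 1.

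Related genes that are no members gave no call by limma. Of 40 other germline genes, 35 were in the table, 32 had reads and 17 with reads were tested. Their median log2 difference was −0.07, beside 0.06 for all genes tested. The edgeR test called 0 of 32, with 3 at an unadjusted p under 0.05, against 13.6% of all genes. By limma, 1 of 17 had an unadjusted p under 0.05, against 7.62% of all genes tested. That gene was Dmc1, the meiotic recombinase, with 12, 10, 10, 13 and 10 reads in +/+ and 2, 3, 2 and 9 in Δ/D329A, a log2 difference of −1.39 ± 0.45 (SE) and an adjusted p of 0.355. Of 15 other pluripotency genes, 14 had reads and 5 were tested, with a median difference of 0.02, and edgeR called 0 of 14. Esrrb had the smallest p among them, at 0.85 ± 0.28 (SE, adjusted p = 0.355). A list of 24 silencing and repressor genes, such as E2f6, Mga, L3mbtl2, Setdb1 and Dnmt1, was also compared. Of these, 23 were tested and 0 were called, with a median of 0.03 and a range of −0.35 to 0.55. An unadjusted p was under 0.05 for 1 by limma, against 7.62% of all genes tested, and for 6 of 24 by edgeR, against 13.6%. Here edgeR also called 0. Zbtb16 had the smallest p of this list, at 0.38 ± 0.15 (SE, adjusted p = 0.355).

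Histone marks at the promoters were measured as RPM of uniquely mapped reads per 2 kb tile, at a step of 1 kb, averaged over the tiles centred between 1500 bp upstream and 500 bp downstream of the gene start. To see which promoters carry a mark in normal tissue, the 3 +/+ libraries of each mark were set against the 3 input libraries of the same animals. H3K4me3 exceeded input at 7 of 39 member promoters and lay below it at 28 (limma, adjusted p under 0.05), while among all 25952 promoters 57.5% were above and 33.4% below. H3K27me3 exceeded input at 11 of 39 and lay below it at 4, against 20.2% above and 42.6% below for all promoters. H3K36me3 exceeded input at 1 of 39 and lay below it at 34, against 3.7% and 76.9%. At 23 of the 39 promoters no mark was above input, and the matching share of all promoters was not determined. RPM sums to a fixed total, so a mark concentrated elsewhere falls below input at an unmarked promoter. Centring each library on its median instead put 2, 23 and 11 members above input for H3K4me3, H3K27me3 and H3K36me3. Of all 25952 promoters, 12385, 10547 and 6724 were then above input, where 14924, 5255 and 959 were above it without centring. Without replicate 3 the H3K27me3 count above input was 7, beside 3993 of all promoters.

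The median member had 0.197 to 0.233 RPM of H3K4me3 in the 3 +/+ libraries, where the median of all promoters was 5.32 to 5.88. Tex14 was the most marked, with 17.9, 17.9 and 19.18 RPM in +/+ and 14.0, 20.4 and 19.6 in Δ/D329A. Its start lies 111 bp from that of Rad51c, a DNA repair gene on the opposite strand with 14 to 41 reads per library. Rad51c reads were also higher in the mutant, with a pooled ratio of 1.51 (1.18 to 1.92). Its libraries overlapped, at 2.53 to 6.36 RPM in +/+ and 5.82 to 7.27 in Δ/D329A. Smc1b had 6.29, 6.75 and 7.95 RPM in +/+ and 4.23, 6.67 and 7.26 in Δ/D329A. The start of Smc1b lies 142 bp from that of the oppositely oriented Ribc2, with 1 to 17 reads per library. The pooled ratio of Ribc2 reads was 2.63 (1.51 to 4.69). At these 2 shared promoters, whose sequences above lack CACGTG, a 2 kb tile cannot assign the mark to a gene. No other member had another gene's start within 3 kb.

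Tdrd5 had 6.51, 6.62 and 8.01 RPM of H3K4me3 in +/+ and 5.02, 9.51 and 6.91 in Δ/D329A. Tdrd6 had 2.72, 4.39 and 3.55 in +/+ and 0.878, 2.68 and 2.29 in Δ/D329A. Rnf17 (mean 1.87 ± 0.24, SD, n = 3, in +/+), Dazl (1.76 ± 0.19) and Spo11 (1.40 ± 0.17) were weaker but above their input of 0.873 to 0.914. The 7 promoters with H3K4me3 above input belonged to genes with a median of 42 reads in +/+ (10 to 191), and the other 32 to genes with a median of 3 (0 to 282). Brdt, the highest of these 32 by reads, had 0.253, 0.266 and 0 RPM of H3K4me3 at its annotated start, against an input of 1.02 to 1.14. Sycp3, whose reads were higher in mutant replicates 1 and 3, had 0.253, 0.499 and 0.723 RPM in +/+ and 0.659, 0.749 and 0.549 in Δ/D329A, below or near input in both genotypes.

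H3K27me3 was highest at Mei1, with 3.11, 5.37 and 4.54 RPM in +/+ and 3.70, 3.99 and 5.25 in Δ/D329A. Pou5f1 followed with 3.59, 3.39 and 4.16 against 4.64, 4.07 and 4.62, and Tdrd5 with 2.89, 3.002 and 2.88 against 2.92, 2.43 and 3.25. In +/+, the mean at Mei1, Pou5f1 and Tdrd5 was higher than at 97.4%, 96.4% and 94.5% of all promoters. The RefSeq start of Mei1 lies 12480 bp from the gene start used for the marks, so its mark values may not describe that promoter. Tdrd6 (1.95 ± 0.16, SD, n = 3) and Dppa3 (1.92 ± 0.51) came next, and the call at Dppa3 was lost in 2 of the 3 fits that left out an animal. By role, H3K27me3 was above input at 3 of 5 pluripotency genes (Pou5f1, Dppa3 and Zfp42), 4 of 13 piRNA pathway genes (Tdrd1, Tdrd5, Tdrd6 and Fkbp6), 2 of 10 meiotic genes (Mei1 and Spo11), 1 of 8 germ cell regulators (Brdt) and 1 of 3 testis genes (Tex101). Tdrd5, Tdrd6 and Spo11 carried both H3K4me3 and H3K27me3 above input, and the share of all promoters with both was not determined. With each library centred on its median, the H3K4me3 difference from input was −0.36 at Tdrd6 and 0.17 at Tdrd5 (limma adjusted p = 0.265). Neither was then called above input for H3K4me3. The 2 members that were above it under this centring were Tex14 and Smc1b. Dazl, Sycp3, Stk31 and Dppa4 were below input for H3K27me3, and Tex14 had 0.157, 0.420 and 0.074 RPM.

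H3K36me3 stood out at Sycp2, with 1.73, 1.49 and 1.70 RPM in +/+, the 1 member above input, with a mean higher than at 97.9% of promoters. It was not called without replicate 1 or without replicate 3, when 0 members were above input, nor within 1000 bp either side of the start. Dppa3 (0.696 ± 0.098, SD, n = 3), Brdt (0.678 ± 0.093), Sycp3 (0.672 ± 0.216) and Ddx4 (0.615 ± 0.058) had the next highest levels, with means below their mean input of 0.843 to 1.08. The start of Sycp2 lies 6787 bp from that of Ppp1r3d.

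**Figure D3:**
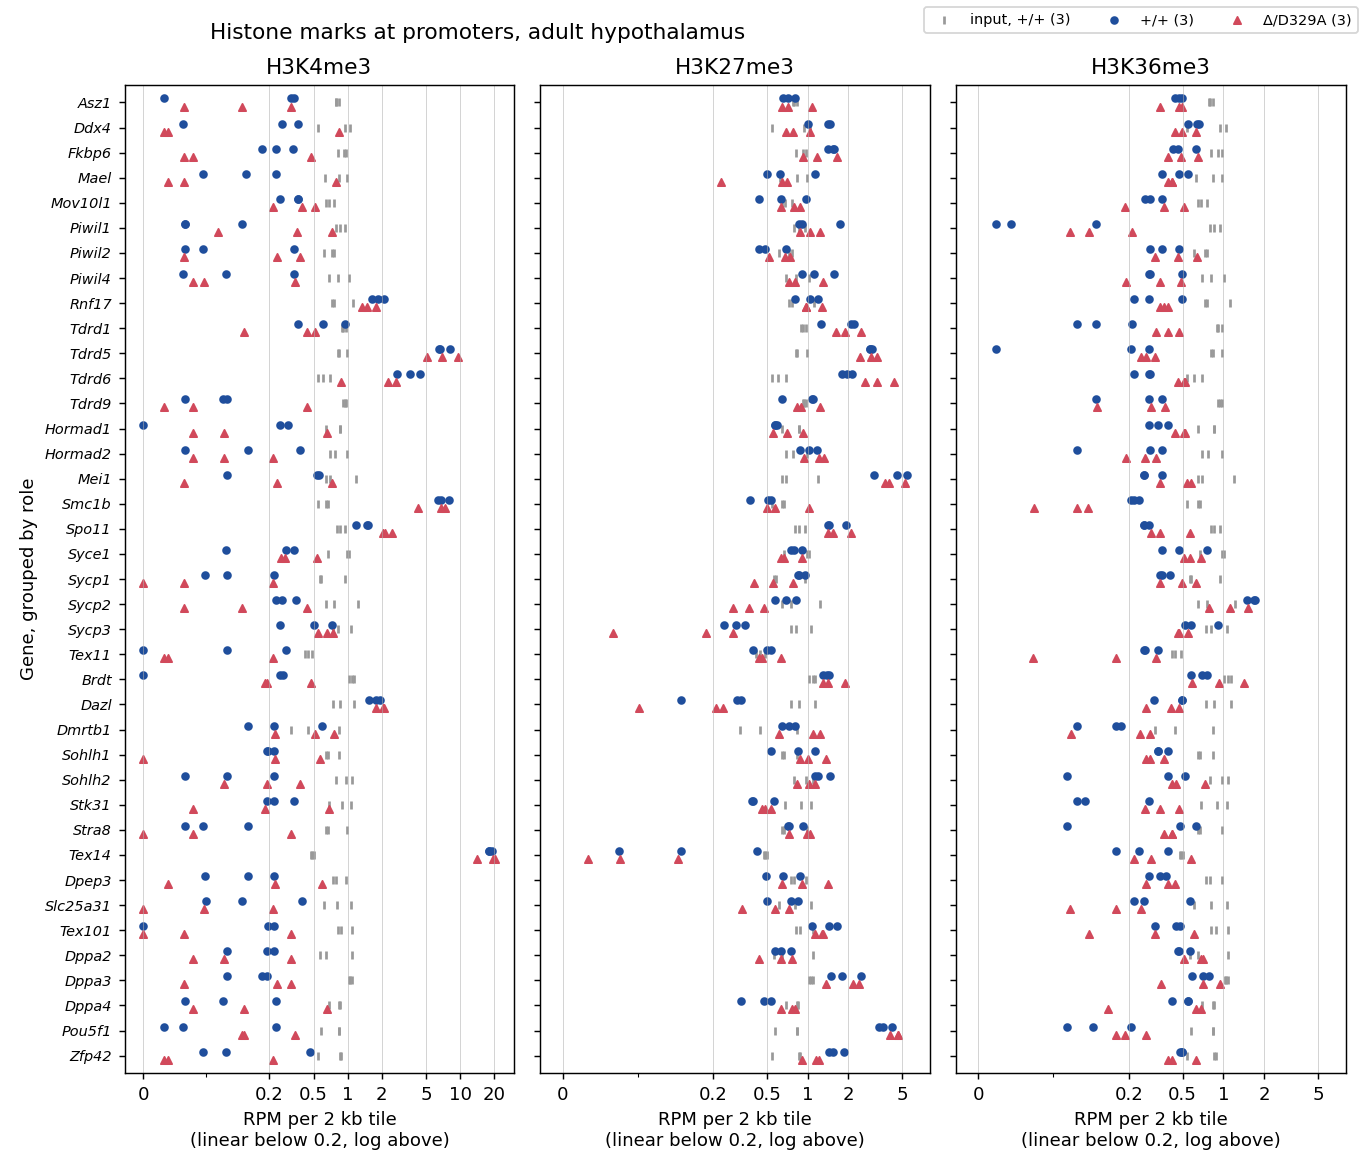
H3K4me3, H3K27me3 and H3K36me3 at the 39 promoters in RPM per 2 kb tile (x axes, linear below 0.2 and logarithmic above), with 3 +/+ animals as blue circles, 3 Δ/D329A animals as red triangles and the 3 +/+ inputs as grey ticks. For H3K4me3 most members lie left of input while Tex14, Tdrd5, Smc1b and Tdrd6 lie right of it, and for H3K27me3 Mei1, Pou5f1, Tdrd5 and Tdrd6 lie right of it.

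Whether these marks differed in the mutant was then compared at each promoter. No member was called for H3K4me3, H3K27me3 or H3K36me3 at an adjusted p of 0.05, and among all promoters 0%, 0% and 0.0231% were. Unadjusted limma p-values were under 0.05 for 1, 5 and 4 of the 39 members, against 3.47%, 8.9% and 6.58% of promoters. The 2 genotypes did not overlap at 2 members for H3K4me3 (6.06% of promoters), 6 for H3K27me3 (13.6%) and 5 for H3K36me3 (11.7%). The median log2 difference over the members was −0.02, 0.07 and 0.14, beside −0.07, −0.02 and 0.11 over all promoters. Mutant replicate 1 of H3K4me3 stood apart, with a median of 5 reads per tile genome-wide against 1 to 3 in the other 5 libraries and a median member level of 0.470 RPM against 0.129 to 0.233. Without it the count called was still 0, but the median difference over the members was −0.42 and over all promoters 0.04.

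Tdrd6 had the smallest p of the members for H3K27me3 and for H3K36me3. H3K27me3 was 2.11, 1.95 and 1.78 RPM in +/+ and 3.26, 2.67 and 4.34 in Δ/D329A, with every mutant animal above every +/+ animal. The log2 difference was 0.76 ± 0.18 (SE, adjusted p = 0.408), it was 0.58 to 0.92 with each animal left out, and the adjusted p was 0.033 when promoters under a mean of 0.5 RPM were not tested (0.033 to 0.722 over all alternatives). Input at Tdrd6 was itself 0.544, 0.695 and 0.607 in +/+ and 0.877, 0.747 and 0.760 in Δ/D329A, and as a ratio to input the difference was 0.43 (adjusted p = 0.655). H3K4me3 was lower without overlap, by −0.94 ± 0.46 (SE, adjusted p = 1), or by −0.48 without mutant replicate 1. H3K36me3 was 0.219, 0.284 and 0.288 RPM in +/+ and 0.463, 0.516 and 0.525 in Δ/D329A, a difference of 0.73 ± 0.19 (SE, adjusted p = 0.718), at levels below input. The mean of RNA and of H3K4me3 at Tdrd6 was thus lower in the mutant, and that of H3K27me3 and of H3K36me3 was higher. None of these differences passed its adjusted threshold with all features tested, and the RNA and the marks came from different animals.

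**Figure D4:**
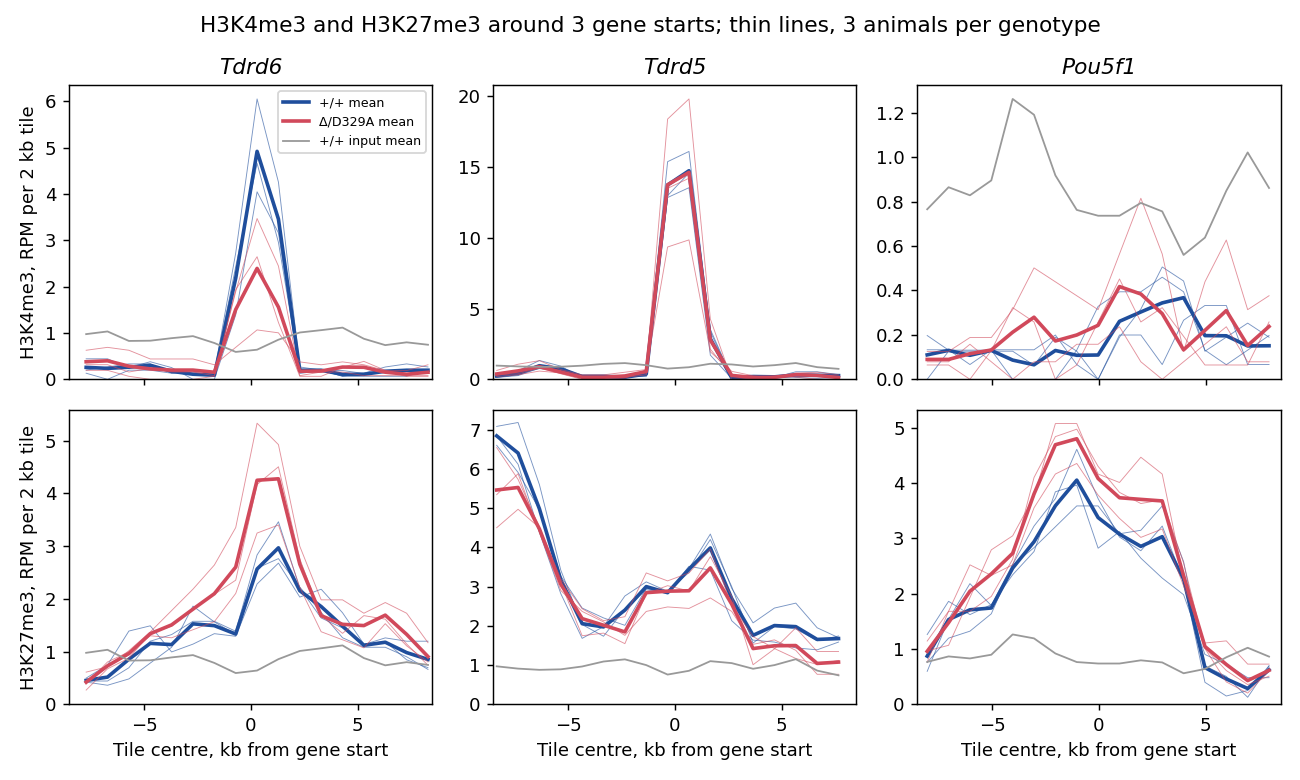
H3K4me3 (top) and H3K27me3 (bottom) in RPM per 2 kb tile against the distance of the tile centre from the gene start in kb, for Tdrd6, Tdrd5 and Pou5f1, with thick lines for the mean of 3 animals, thin lines for each animal and grey for +/+ input. At Tdrd6 the H3K4me3 peak is lower and the H3K27me3 peak higher in Δ/D329A (promoter means of 3.55 and 1.95 RPM for H3K4me3 and 1.95 and 3.43 RPM for H3K27me3 in +/+ and Δ/D329A), at Tdrd5 the genotypes overlap, and Pou5f1 carries H3K27me3 without H3K4me3.

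Among the other members, H3K27me3 at Zfp42 was 1.86, 1.44 and 1.54 RPM in +/+ and 1.14, 1.203 and 0.914 in Δ/D329A, a non-overlapping difference of −0.53 ± 0.15 (SE, adjusted p = 0.451). At Sycp2 it was 0.818, 0.691 and 0.570 against 0.370, 0.477 and 0.279 (−0.75 ± 0.26, SE, adjusted p = 0.511). At Ddx4 the values of 1.01, 1.41 and 1.46 against 0.773, 0.688 and 1.04 overlapped (−0.58 ± 0.21, SE, adjusted p = 0.526). Dppa4 was higher, at 0.472, 0.540 and 0.322 against 0.639, 0.802 and 0.762 (0.63 ± 0.24, SE, adjusted p = 0.53), and at Pou5f1 the difference was 0.25 ± 0.11 (SE, adjusted p = 0.573).

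For H3K4me3, Spo11 had the smallest p, with 1.52, 1.197 and 1.48 RPM in +/+ and 2.07, 2.13 and 2.45 in Δ/D329A (0.63 ± 0.24, SE, adjusted p = 1). All 3 mutant animals lay above the +/+ animals, and without mutant replicate 1 the difference was 0.68. Its reads, 1, 4, 1, 7 and 3 in +/+ and 4, 0, 6 and 2 in Δ/D329A, overlapped. Piwil1, Pou5f1 and Zfp42 differed by 1.17, 0.69 and −0.70 at H3K4me3 levels of at most 0.721 RPM, where the pseudocount of 0.1 RPM weighs on the log scale. For H3K36me3, Tdrd1 had 0.131, 0.213 and 0.157 RPM in +/+ and 0.316, 0.393 and 0.472 in Δ/D329A, a non-overlapping difference of 0.89 ± 0.27 (SE, adjusted p = 0.718). At Sycp2 the mark was lower, at 1.12, 0.786 and 1.52 in Δ/D329A (−0.53 ± 0.22, SE, adjusted p = 0.756), with overlap. Hormad1 and Mei1 differed by 0.45 and 0.57.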

How the data were processed

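RNA-seq (Ribo-Zero libraries) and native ChIP-seq reads were trimmed, aligned to GRCm38 and quantified by the authors in SeqMonk. The submitters' processing notes name Trim Galore 0.4.3 and HISAT2 2.0.5, and the aligner of the ChIP-seq reads is given differently in the sources used here. The authors left 1 further Δ/D329A RNA library out for low quality. The deposited RNA values are log2 RPKM over merged exons. The deposited ChIP values are a signal, RPM per 2 kb tile at a 1 kb step.

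Whole reads per gene were recovered from the steps of the RPKM values (25950 of 25952 nuclear genes within 0.02 reads, with a 0 deposited as 0.9 reads), and all ChIP values were whole reads within 0.05. Because this floor is a read number, short genes without reads can pass an RPKM filter and sit higher in shallower libraries. The main RNA test was limma 3.58.1 with a mean-variance trend on log2 RPKM, over genes reaching 0.1 RPKM in 4 or more libraries, with Benjamini-Hochberg adjustment over all of them and a threshold of 0.01. The 13 mitochondrial genes were dropped. edgeR 4.0.16 and DESeq2 1.42.0 on the recovered reads were alternatives, and DESeq2 left the adjusted p of 14 members undefined. Marks were tested with limma on log2(RPM + 0.1) over all 25952 promoters at 0.05. Tests were two-sided, and each p-value reflects the spread between animals. Ratios of pooled reads over pooled depth have exact conditional 95% intervals. On data simulated over all genes or promoters tested, limma recovered 179 of 200 genes given a log2 RNA change of 2. It recovered 25, 33 and 9 of 200 promoters given a log2 difference of 1 in H3K4me3, H3K27me3 and H3K36me3. Only 11 members were among the genes tested, so the RNA figure does not describe most members. Other alternatives were the filter, pseudocount, scaling, promoter window, input ratio, replicate block and each library left out. For H3K4me3 and H3K27me3 a block by mitochondrial signal of the H3K4me3 libraries was also fitted. That signal was high in +/+ replicate 3 and mutant replicates 2 and 3 and low in the others.

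The members and the gene lists were chosen with earlier results of these data known. Members were named by a rule: those called by any tool, the 10 with the smallest limma p, the 8 highest in +/+, and for each mark the 5 highest and the 5 with the smallest p. From the other lists up to 3 genes with the smallest p were named. Replicate numbers did not pair the genotypes: correlations of same-numbered deviations were −0.05 to 0.14 for RNA, −0.26 to 0.23 for H3K4me3, 0.01 to 0.08 for H3K27me3 and −0.004 to 0.07 for H3K36me3. Mark and input libraries with the same number come from the same animal. Bisulfite libraries were not used here.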

Additional observations from a re-analysis of the deposited data

Results flagged for a closer look

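Among 22 groups of log2 RPKM values (11 tested members in 2 genotypes), 4 held a library far from the rest by Dixon's criterion, which chance gives in about 1 of 20 groups. In +/+ replicate 3, Sycp3 was at −2.08 log2 RPKM where the other 4 libraries were at −4.57 to −4.29, Tdrd5 was at −2.37 where they were at −1.48 to −1.36, and Tdrd6 was at −3.75 where they were at −2.33 to −1.94. In +/+ replicate 4, Dmrtb1 was at −2.69 where the others were at −1.81 to −1.48. At Sycp3 the outlying value is 4 reads against 0 or 1.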

How the results depend on the processing

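For RNA, limma called 0 members under every filter, pseudocount and scaling tried and with any single library left out. The filter at 0.5 RPKM left 1 member to test. After its own filter, edgeR tested 5 and called 0, while edgeR without a filter and DESeq2 called 1 (Rnf17). Rnf17 and Sycp3 did not pass either of these 2 filters, so they could not be called there. After seeing the data, edgeR without a filter was repeated with each library left out and called 0 to 2 members. Between genotypes 0 members were called for H3K4me3 or H3K36me3 under the alternatives run, and 1 (Tdrd6) for H3K27me3 when promoters under a mean of 0.5 RPM were not tested. Over all features, 19 genes were called by limma against 77, 146 and 249 by edgeR with and without a filter and by DESeq2, and the 0.5 RPM filter called 277 promoters for H3K4me3 and 222 for H3K27me3, where 0 were called without it.

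Of members called against input in +/+, in either direction, leaving out each animal gave 31 to 33 for H3K4me3 (35 with all), 9 to 13 for H3K27me3 (15 with all, 9 without replicate 3) and 27 to 28 for H3K36me3 (35 with all). Centring each library on its median gave 25 for H3K27me3 and 12 for H3K36me3. With the replicate number as a block, 0 members were called between genotypes in RNA or any mark, and 35, 13 and 32 against input. The replicate block called 16 of all genes in RNA where 19 were called without it, and libraries did not all correlate best with their own number. With the mitochondrial block 0 members were called for H3K4me3 or H3K27me3. For H3K4me3, 6 of 39 members then had an unadjusted limma p under 0.05, beside 2126 of 25952 promoters. The median H3K4me3 difference was then 0.22 over the members and −0.13 over all promoters.

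Of 544 values of single genes under an alternative, 511 kept direction and side of the threshold, 14 lost the threshold, 6 gained it and 13 changed sign. With single libraries left out, RNA differences near 0 changed sign, at −0.35 to 0.043 for Tdrd5, −0.18 to 0.043 for Brdt and −0.32 to 0.059 for Dmrtb1. Under median centring, H3K4me3 against input turned to −0.36 at Tdrd6 and −1.66 at Rnf17, and H3K36me3 to 0.79 at Dppa3, 0.73 at Brdt, 0.98 at Sycp3 and 0.98 at Ddx4. The cause of these shifts was not tested. Depth limits the RNA comparison, as 18 of 39 members had fewer than 10 reads in all.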

Other observations

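Rec8, a meiotic cohesin on the list of other germline genes and named here after its values were seen, had 10, 11, 9, 7 and 12 reads in +/+ and 21, 2, 18 and 3 in Δ/D329A. In RPM the mutant values were 3.22, 0.521, 3.19 and 0.607, so replicates 1 and 3 lay above and replicates 2 and 4 below all +/+ libraries (1.03 to 2.18), and the limma log2 difference was −0.11 (adjusted p = 0.976). Replicates 1 and 3 were also the highest mutant libraries at Rnf17, Sycp3 and Ddx4, while replicates 2 and 3 were the highest at Tex14 and Tdrd1. No label separates the 4 mutant animals.

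H3K27me3 was above input at 11 of 15 other pluripotency genes and at 6 of the 35 other germline genes in the table, beside 11 of the 39 members and 20.2% of all promoters. H3K4me3 was above input at 5 of 15 and 13 of 35, beside 7 of 39 and 57.5% of all promoters.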
